A study of Homo sapiens with 8 samples.

Results

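The genes described here encode the core of the Polycomb repressive complex PRC2 and the enzymes that methylate lysine 9 of histone H3 (H3K9) in human cells, together with a corepressor that brings one of those enzymes to chromatin. They are EZH1, EZH2, SUZ12, EED, SETDB1, SUV39H1, SUV39H2, EHMT1, EHMT2 and TRIM28, 10 of the 36329 gene names on the arrays, and they are listed by gene name, a rule that uses no measured value, although the set was drawn up with earlier results of these data known. Their RNA was read by 15 of the 50579 probes analysed, and all 10 genes were tested in every comparison. The arrays hold RNA of DLD1 cells, an established line from a colorectal adenocarcinoma. The siRNA was either a control (siCONT) or one of siUHRF1-1 and siUHRF1-2, which target UHRF1. The UHRF1 protein recruits DNMT1 to newly copied DNA so that its methylation is kept. At 48 h the medium received ethanol (mock) or trichostatin A (TSA) at 300 nM, which blocks histone deacetylases, and RNA was taken 24 h later. Depletion was therefore transient and by siRNA, in the 1 line used for the arrays, and each of the 4 groups (siCONT mock, siUHRF1 mock, siCONT TSA, siUHRF1 TSA) held 2 arrays.

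Levels below are log2 intensities minus the 75th percentile of the same array, so a level of 0 is an intensity that 75% of the probes lie below, and a change of −1 is a 2-fold lower signal. The level of one gene cannot be set against that of another, because probes differ in brightness. On each array 43.3% to 48.0% of probes exceeded background clearly. The arrays of a siCONT group differed by 1.10 (mock) and 1.15 (TSA) times the noise between repeated spots. For the siUHRF1 arrays it was 13.7 and 11.4 times, so no SD is given for a siCONT group. The main limma fit still entered all 8 arrays singly, and its calls, counts and SEs rest on that. Only a second fit counted each siCONT group as 1 sample, by its mean. Each call made for the 10 genes by the limma fit on 8 arrays is given with the adjusted p of a fit in which a siCONT group is 1 sample, and for lists of other genes the text says which of the named calls held in that fit. Nothing states that the siCONT arrays came from separate cultures, so their spread may be technical only. Each siUHRF1 group pairs different siRNAs. The limma fit pools these unlike spreads into 1 estimate that it takes as equal in all groups. Its p-values thus mix technical spread with differences between siRNAs, and can be too small where siUHRF1 groups are compared. Where a call changes without an array that its comparison does not use, only this pooled spread moved. Slide row 1 held every mock array and row 2 every TSA array, on a single slide, so TSA and slide row cannot be told apart. Columns 1 and 2 held every siCONT array and columns 3 and 4 every siUHRF1 array, so UHRF1 depletion and slide column cannot be told apart either. All 9 colon epithelium markers were above background on all arrays, as were CD14 and CD68, while CD3E was on none and PTPRC on 1 with all its probes counted. No fibroblast or endothelium marker was above background on every array. Of these, VWF and CDH5 were above it on 6 arrays, COL1A1 on 4, PDGFRB on 3 and DCN on 1, and COL1A2, COL3A1 and PECAM1 on none. RNA of whole cultures was measured, so fewer cells of a type and less RNA per cell cannot be told apart.

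PRC2 places methyl groups on lysine 27 of histone H3 (H3K27), a mark of silenced developmental genes. EZH2 and EZH1 are its alternative catalytic subunits, SUZ12 is the scaffold, and EED reads the finished mark and raises the activity of the complex. SUV39H1 and SUV39H2 write H3K9 trimethylation at constitutive heterochromatin, EHMT2 (G9a) and EHMT1 (GLP) form a pair that writes H3K9 mono- and dimethylation in gene-rich chromatin, and SETDB1 is recruited by TRIM28 (KAP1) to silence retroelements and zinc finger gene clusters. UHRF1 itself binds methylated H3K9, which ties the reading of that mark to the upkeep of DNA methylation.

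Promoters are shown for SUV39H1, SUV39H2 and EHMT2, which fell most with both treatments, for EZH1, the 1 gene that fell with depletion alone, for EZH2, its alternative in PRC2, and for SUZ12, whose level differed between the siRNAs. RefSeq (GRCh38.p14) gave 12 promoter windows for 9 of the 10 genes, each with 250 bases before and 50 after the start of transcription. They were searched on both strands for the E2F sites TTTCCCGC, TTTGGCGC, TTTCGCGC and TTTGCCGC, which mark many genes of S phase, and for the cell cycle homology region TTTGAA. Capitals mark the matches, and the sequence is given 5′ to 3′ on the strand of the gene.
EZH1, chr17:42744991-42745290, minus strand: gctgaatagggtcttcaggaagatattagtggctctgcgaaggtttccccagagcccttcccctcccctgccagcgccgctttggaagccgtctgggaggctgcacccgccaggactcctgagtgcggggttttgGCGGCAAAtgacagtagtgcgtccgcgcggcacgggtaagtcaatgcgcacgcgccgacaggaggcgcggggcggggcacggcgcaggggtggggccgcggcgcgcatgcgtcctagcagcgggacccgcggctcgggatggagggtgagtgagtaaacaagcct
EZH2, chr7:148884242-148884541, minus strand: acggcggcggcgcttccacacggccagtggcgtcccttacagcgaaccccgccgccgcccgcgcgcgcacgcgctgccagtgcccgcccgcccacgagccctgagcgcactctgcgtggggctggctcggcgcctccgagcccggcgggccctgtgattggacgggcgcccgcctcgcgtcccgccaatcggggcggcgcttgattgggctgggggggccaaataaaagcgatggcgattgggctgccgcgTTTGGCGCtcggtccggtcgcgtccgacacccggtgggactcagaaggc
SUZ12, chr17:31936757-31937056, plus strand: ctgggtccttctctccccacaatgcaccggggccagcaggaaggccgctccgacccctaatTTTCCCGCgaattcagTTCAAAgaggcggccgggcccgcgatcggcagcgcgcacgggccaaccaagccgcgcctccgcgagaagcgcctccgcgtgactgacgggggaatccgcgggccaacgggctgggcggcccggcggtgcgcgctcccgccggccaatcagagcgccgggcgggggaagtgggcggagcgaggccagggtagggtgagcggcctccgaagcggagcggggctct
SUV39H1, chrX:48696484-48696783, plus strand, the second of its windows: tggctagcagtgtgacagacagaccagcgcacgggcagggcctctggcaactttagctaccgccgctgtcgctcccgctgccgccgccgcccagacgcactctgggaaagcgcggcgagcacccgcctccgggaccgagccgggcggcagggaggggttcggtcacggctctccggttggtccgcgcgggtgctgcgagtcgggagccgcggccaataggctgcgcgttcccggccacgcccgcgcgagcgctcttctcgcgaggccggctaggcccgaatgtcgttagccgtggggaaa
SUV39H2, chr10:14878616-14878915, plus strand: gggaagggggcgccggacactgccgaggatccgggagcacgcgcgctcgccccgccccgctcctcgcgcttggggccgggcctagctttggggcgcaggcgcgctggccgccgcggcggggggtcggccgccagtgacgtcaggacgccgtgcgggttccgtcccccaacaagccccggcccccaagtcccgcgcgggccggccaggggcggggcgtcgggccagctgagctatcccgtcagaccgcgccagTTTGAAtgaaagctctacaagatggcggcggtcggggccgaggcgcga
EHMT2, chr6:31897649-31897948, minus strand: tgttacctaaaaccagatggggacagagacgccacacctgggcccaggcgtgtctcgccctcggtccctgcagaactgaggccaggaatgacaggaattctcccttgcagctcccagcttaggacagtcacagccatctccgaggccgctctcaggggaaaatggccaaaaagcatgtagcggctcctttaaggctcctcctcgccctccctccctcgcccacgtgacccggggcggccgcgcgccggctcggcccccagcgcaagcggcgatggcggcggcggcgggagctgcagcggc

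An E2F site stood in the windows of 3 genes. In EZH1 it was TTTGCCGC on the opposite strand, at 115 bases before the start, in EZH2 TTTGGCGC at base 2 after it, and in SUZ12 TTTCCCGC at 189 bases before it. The element TTTGAA was found in SUZ12, 173 bases before the start on the opposite strand, and in SUV39H2, at base 3 after it, and the matches did not overlap. Of 35116 promoter windows of this length, 3.31% held any of the 4 E2F sites and 15.2% held TTTGAA. The windows of EED, SETDB1, SUV39H1, EHMT1 and EHMT2 held none of these letters. The window of EHMT2 had 66.7% G and C and 25 CpG, that of SUV39H2 76.3% and 44 CpG, and the median over all windows was 58.7% and 14 CpG. A match is a description of letters and not of a bound site.

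UHRF1 was lower on every siUHRF1 array than on any siCONT array given the same agent. Its brighter probe read 1.98 and 2.01 on the siCONT mock arrays and 0.34 and −0.02 with siUHRF1-1 and siUHRF1-2. With TSA it read 1.04 and 1.01 in siCONT and −1.56 and −2.14 with the siRNAs. The fitted change was −1.83 under mock (SE 0.22, adjusted p = 0.0119, or 0.252 with siCONT as 1 sample). The depleted TSA arrays were thus also those with the least UHRF1 RNA.

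All 10 genes read lower in cells that had both UHRF1 depletion and TSA than in siCONT mock cells, and 9 of them passed the test in that comparison. SUV39H1, SUV39H2 and EHMT2 fell most. TSA alone lowered 2 genes, EHMT2 and SETDB1, and UHRF1 depletion alone lowered 1, EZH1, while none rose in any of the 6 comparisons. A gene is said to have risen, fallen or passed here only at an adjusted p under 0.05 in limma, two-sided and adjusted over all probes tested.

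The share of all probes that passed gives the background for these counts. Under UHRF1 depletion alone 1 of 10 genes fell, beside 3.69% of all probes lower and 4.88% higher. With TSA in siCONT cells 2 of 10 fell, beside 23.0% of probes lower and 17.2% higher, so this count is close to the background. For depletion plus TSA against siCONT mock 9 of 10 fell, beside 26.2% of probes lower and 21.0% higher. Against siCONT with the same TSA, depletion lowered 3 of 10, beside 8.49% lower and 8.99% higher. In UHRF1-depleted cells TSA lowered 7 of 10, beside 20.8% lower and 18.5% higher. The interaction, which is the depletion effect under TSA minus that under mock, passed for 0 of 10, beside 2.54% of probes lower and 3.29% higher. At an unadjusted p under 0.05 the interaction reached 5 genes, and the methods' t-test gives no interaction.

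Medians over the 10 genes were −0.13 for depletion alone, −0.31 for TSA alone and −0.80 for both, beside −0.10, −0.11 and −0.14 over all probes tested. These comparisons share the siCONT mock arrays, so their values stand side by side and are not independent. With each siCONT group as 1 sample, 3 of the 10 genes still passed for depletion plus TSA (SUV39H1, SUV39H2 and EHMT2), beside 5.68% of all probes lower. For TSA in depleted cells 4 passed (EHMT1, EHMT2, SUV39H1 and SUV39H2), beside 8.58% lower. None passed for depletion alone or for the interaction, where 0% of probes were lower in that fit, nor for TSA in siCONT (0.297%) or depletion under TSA (0.0168%). At an unadjusted p under 0.05 that fit reached 1, 1, 1 and 2 of the 10 genes in those 4 comparisons, in the same order.

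**Figure D1:**
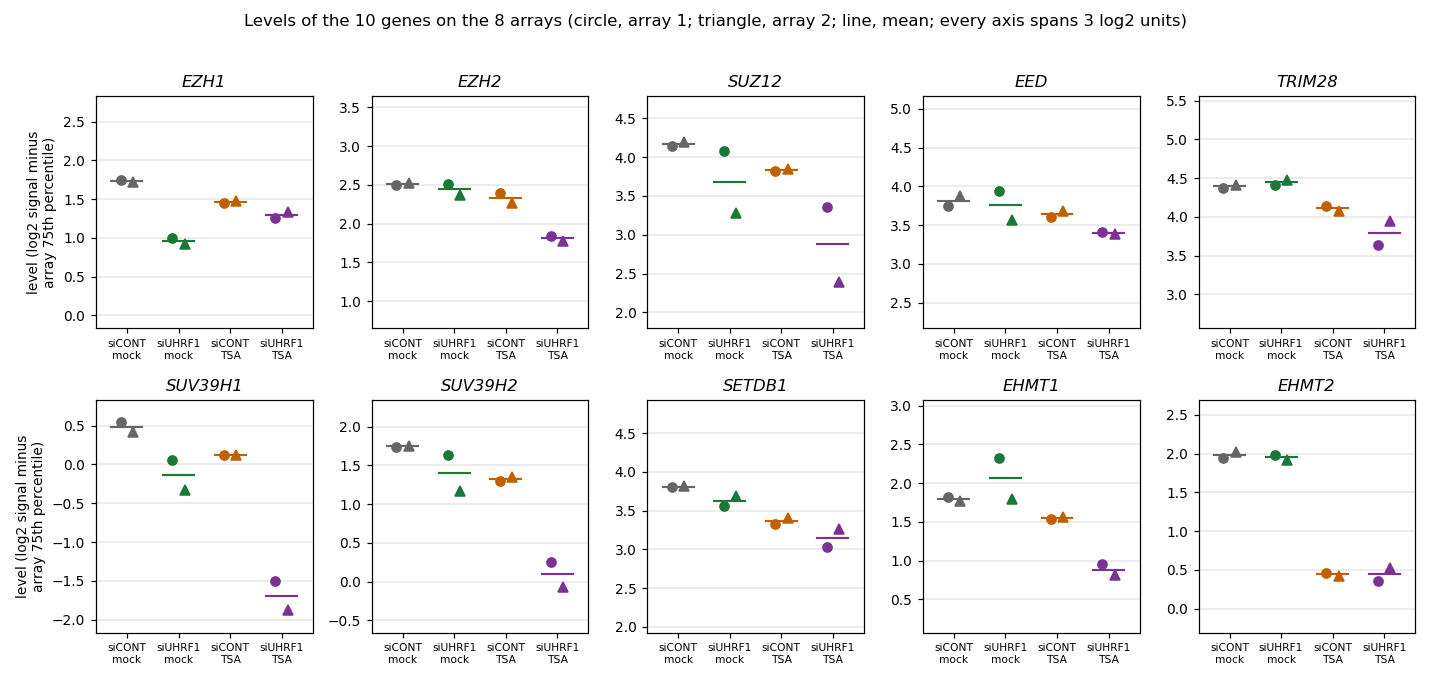
Level of each of the 10 genes (log2 intensity minus the 75th percentile of the array, 1 panel per gene) on the 2 arrays of each group; circles are array or siRNA 1, triangles array or siRNA 2, and lines the group means. SUV39H1 and SUV39H2 are lowest on the siUHRF1 TSA arrays, EHMT2 is low on all 4 TSA arrays, EZH1 is lowest on the siUHRF1 mock arrays, and SUZ12 differs between the siRNAs.

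SUV39H1 and SUV39H2, the paired writers of H3K9 trimethylation, fell most in cells given both treatments, while neither passed for either treatment alone. SUV39H1 (probe at chrX:48566887-48566946, hg19) read 0.54 and 0.43 on the siCONT mock arrays, 0.06 and −0.33 with siUHRF1-1 and siUHRF1-2 under mock, 0.13 and 0.13 in siCONT TSA, and −1.50 and −1.88 with both. The siUHRF1 TSA arrays lay below all others by more than 1 log2 unit, and the siUHRF1 mock arrays lay below siCONT mock and overlapped none of its values. The change with both was −2.17 (SE 0.19, adjusted p = 0.000487, or 0.0169 with siCONT as 1 sample), which left 22.2% of the siCONT mock signal. Depletion alone gave −0.62 (adjusted p = 0.0912) and TSA alone −0.36 (adjusted p = 0.176).

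Within TSA-treated cells, depletion changed SUV39H1 by −1.82 (adjusted p = 0.0051, or 0.108 with siCONT as 1 sample). Within depleted cells, TSA changed it by −1.55 (adjusted p = 0.0019, or 0.0198), and the siRNAs gave −1.55 and −1.55 each. The interaction was −1.19 (SE 0.27, adjusted p = 0.0559), just short of the threshold, and it passed with quantile normalization (−1.37, adjusted p = 0.0431), among probes above background on all arrays (adjusted p = 0.0411) and without siUHRF1-2 under mock (−1.39, adjusted p = 0.0276). Depletion alone passed without siUHRF1-1 under mock (−0.82, adjusted p = 0.0434).

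The dimmer SUV39H1 probe (chrX:48565909-48565968, hg19) was above background on 6 arrays and on neither siUHRF1 TSA array. It was at least 3.94-fold lower there than in siCONT mock (adjusted p = 0.00227, or 0.0263 with siCONT as 1 sample) and at least 4.59-fold lower than in siCONT TSA (adjusted p = 0.00774, or 0.0921). Against siUHRF1 mock it was at least 2.59-fold lower on the siUHRF1 TSA arrays (adjusted p = 0.00949, or 0.0313 with siCONT as 1 sample). For TSA alone it read 0.22 (adjusted p = 0.579), against −0.36 for the brighter probe, and neither passed.

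SUV39H2 (probe at chr10:14944641-14944700, hg19) read 1.74 and 1.76 in siCONT mock, 1.64 and 1.17 with siUHRF1-1 and siUHRF1-2 under mock, 1.30 and 1.36 in siCONT TSA, and 0.26 and −0.07 with both. Again the siUHRF1 TSA arrays were the lowest, and siUHRF1 mock overlapped siCONT TSA. Both treatments together gave −1.66 (SE 0.19, adjusted p = 0.00119, or 0.0328 with siCONT as 1 sample), which left 31.7% of the signal. Either treatment alone gave a value that did not pass, −0.35 for depletion (adjusted p = 0.271) and −0.42 for TSA (adjusted p = 0.125). The latter passed with the replicate number as a block within each siRNA arm (adjusted p = 0.0456). Depletion under TSA gave −1.23 (adjusted p = 0.0127), a call that was lost without either siCONT TSA array (adjusted p = 0.0824 and 0.0924) and with siCONT as 1 sample (adjusted p = 0.223). In depleted cells TSA gave −1.31 (adjusted p = 0.00346, or 0.0305 with siCONT as 1 sample). The interaction was −0.89 (adjusted p = 0.102) and passed without siUHRF1-2 under mock (−1.12, adjusted p = 0.0318).

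EHMT2, which encodes G9a, fell with TSA to about the same level whether or not UHRF1 was depleted. Its probe (chr6:31848474-31848533, hg19) read 1.94 and 2.02 in siCONT mock, 1.99 and 1.91 with siUHRF1-1 and siUHRF1-2 under mock, 0.46 and 0.43 in siCONT TSA, and 0.36 and 0.52 with both. The mock and TSA arrays were far apart, while siCONT and siUHRF1 overlapped under each agent. In siCONT cells the TSA effect was −1.54 (SE 0.12, adjusted p = 0.000608, and 0.0823 with siCONT as 1 sample) and in depleted cells −1.51 (adjusted p = 0.000437, and 0.0118), leaving 34.4% and 35.2% of the signal. Depletion gave −0.03 under mock (95% interval −0.32 to 0.25, adjusted p = 0.87) and −0.0016 under TSA (95% interval −0.29 to 0.28, adjusted p = 0.993). Both treatments together gave −1.54 against siCONT mock (adjusted p = 0.000314, or 0.0225 with siCONT as 1 sample). The interaction was 0.03 with a 95% interval of −0.37 to 0.43. Because TSA lay in another slide row than mock, the effect of TSA and that of the row cannot be told apart for this gene.

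EHMT1, the partner of EHMT2, behaved differently. Its brightest probe (chr9:140730311-140730370, hg19) read 1.82 and 1.77 in siCONT mock, 2.33 and 1.80 with siUHRF1-1 and siUHRF1-2 under mock, 1.54 and 1.57 in siCONT TSA, and 0.95 and 0.82 with both. The siUHRF1 TSA arrays were the lowest, and siUHRF1-1 under mock was the highest of all. Depletion plus TSA gave −0.91 (SE 0.19, adjusted p = 0.0094, or 0.125 with siCONT as 1 sample), a call lost without either siCONT mock array (adjusted p = 0.0584 and 0.0505). In depleted cells TSA gave −1.18 (adjusted p = 0.00458, or 0.0385 with siCONT as 1 sample), against −0.24 in siCONT cells (adjusted p = 0.334). The difference between these TSA effects, the interaction, was −0.93 (adjusted p = 0.0887). It passed without either siUHRF1 mock array, at −0.67 (adjusted p = 0.0499) without siUHRF1-1 and −1.20 (adjusted p = 0.0156) without siUHRF1-2. Depletion under TSA gave −0.67 (adjusted p = 0.0578). Leaving out either siUHRF1 mock array, which this comparison does not use, kept the value at −0.67 and changed only the pooled spread.

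The probes of EHMT1 disagreed in part. The probe at chr9:140712526-140712585 gave −0.90 for TSA in depleted cells (adjusted p = 0.0447, or 0.124 with siCONT as 1 sample) and −0.67 for both treatments (adjusted p = 0.0938). The probe at chr9:140676751-140676810 gave −0.15 (adjusted p = 0.495) and −0.53 (adjusted p = 0.0387, or 0.254) for the same comparisons. All 3 probes read lower with both treatments than in siCONT mock.

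SETDB1 and its recruiter TRIM28 moved less. SETDB1 (probe at chr1:150937122-150937181, hg19) read 3.80 and 3.82 in siCONT mock, 3.56 and 3.69 with siUHRF1-1 and siUHRF1-2 under mock, 3.33 and 3.41 in siCONT TSA, and 3.03 and 3.27 with both. Levels descended in that order of groups and no neighbouring groups overlapped. TSA alone gave −0.44 (SE 0.13, adjusted p = 0.0383, or 0.474 with siCONT as 1 sample), and both treatments gave −0.66 (adjusted p = 0.00796, or 0.167). The TSA call was lost without any 1 of the 4 siCONT arrays (adjusted p = 0.149 to 0.195) and under 3 other scalings, quantile normalization giving −0.23 (adjusted p = 0.203). The call for both was lost without either siCONT mock array (adjusted p = 0.0556 and 0.0587). It was also lost under 2 other scalings, at −0.36 (adjusted p = 0.0637) with quantile normalization and −0.42 (adjusted p = 0.0525) where detected probes set the percentile. TSA in depleted cells gave −0.47 (adjusted p = 0.0302, or 0.198 with siCONT as 1 sample), which became −0.22 (adjusted p = 0.349) when all probes of the gene were averaged, and was lost without any 1 of 6 arrays (adjusted p = 0.0647 to 0.0855), with no filter on dim probes (adjusted p = 0.0917) and under the same 2 scalings (−0.30 and −0.31, adjusted p = 0.116 and 0.126).

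Other SETDB1 probes lie within the gene at chr1:150917712-150917771 and chr1:150917395-150917454 and read a further transcript variant. For both treatments together they gave −0.79 (adjusted p = 0.049, or 0.245 with siCONT as 1 sample) and −0.78 (adjusted p = 0.0378, or 0.219), close to the main probe in direction. For TSA alone they gave −0.79 (adjusted p = 0.0544) and −0.77 (adjusted p = 0.045, or 0.38 with siCONT as 1 sample), against −0.44 on the main probe. For TSA in depleted cells they gave −0.02 and −0.16 (adjusted p = 0.953 and 0.63). Their interactions were 0.77 and 0.61 (adjusted p = 0.228 and 0.28), against −0.03 on the main probe (adjusted p = 0.921), and none passed. Under depletion alone they gave −0.77 and −0.62 (adjusted p = 0.115 and 0.144), where siUHRF1-2 was the lower array on each (0.32 against 1.11, and −1.78 against −1.06).

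TRIM28 (probe at chr19:59061599-59061750, hg19) read 4.37 and 4.42 in siCONT mock, 4.42 and 4.48 with siUHRF1-1 and siUHRF1-2 under mock, 4.14 and 4.08 in siCONT TSA, and 3.64 and 3.95 with both. The 4 mock arrays lay together above all TSA arrays, and siUHRF1 TSA was lowest. Both treatments together gave −0.60 (SE 0.14, adjusted p = 0.014, or 0.208 with siCONT as 1 sample), and the call was lost without either siCONT mock array (adjusted p = 0.0754 and 0.0883). It was also lost at −0.31 (adjusted p = 0.123) with quantile normalization and at −0.36 (adjusted p = 0.0946) where detected probes set the percentile. TSA gave −0.65 in depleted cells (adjusted p = 0.0124, or 0.109) and −0.28 in siCONT cells (adjusted p = 0.148). The interaction was −0.37 (95% interval −0.84 to 0.10, adjusted p = 0.26).

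**Figure D2:**
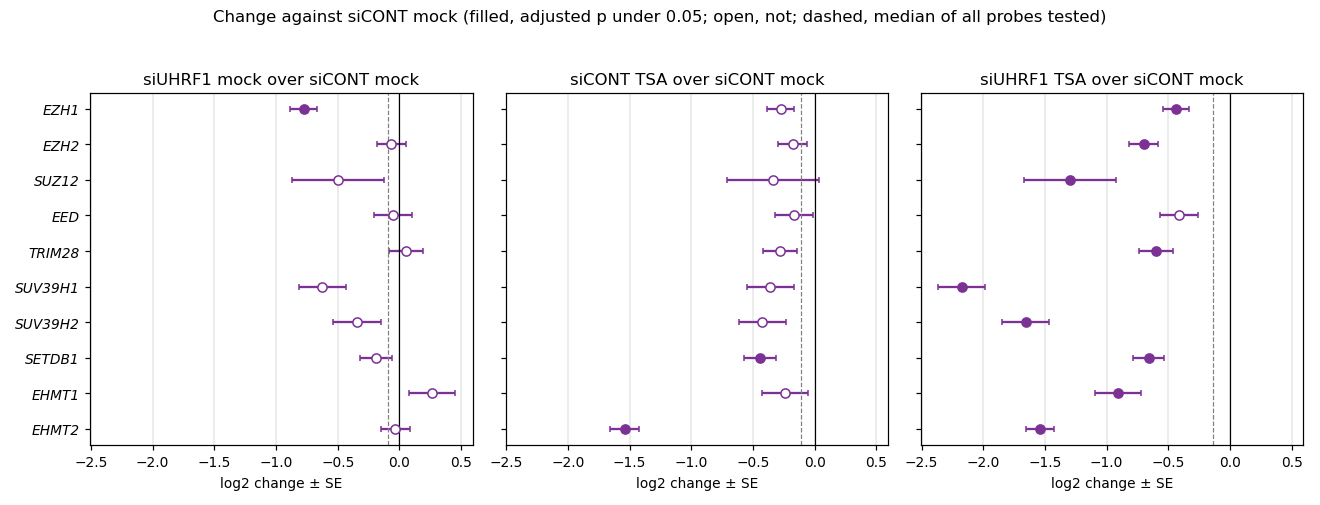
Log2 change ± SE of each of the 10 genes against siCONT mock for UHRF1 depletion alone, TSA alone and both; filled points passed at an adjusted p under 0.05 in limma and the dashed line is the median of all probes tested. All 10 points lie below 0 with both treatments, from −2.17 (SUV39H1) to −0.41 (EED, open), while EZH1 is the only filled point for depletion alone.

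The catalytic subunits of PRC2 differed in which treatment went with a lower level. EZH1 (probe at chr17:40852674-40852733, hg19) read 1.75 and 1.73 in siCONT mock, 1.00 and 0.92 with siUHRF1-1 and siUHRF1-2 under mock, 1.45 and 1.47 in siCONT TSA, and 1.26 and 1.34 with both. The siUHRF1 mock arrays were the lowest, and no groups overlapped. The change with depletion alone was −0.78 (SE 0.11, adjusted p = 0.0178, or 0.487 with siCONT as 1 sample), leaving 58.4% of the signal, with −0.74 and −0.82 for the 2 siRNAs. That call was lost without any 1 of the 4 siCONT arrays (adjusted p = 0.0713 to 0.146) and with no filter on dim probes (adjusted p = 0.0683). Both treatments gave −0.44 (adjusted p = 0.0181, or 0.301 with siCONT as 1 sample). This call was lost without any 1 siCONT array (adjusted p = 0.0569 to 0.119), with no filter (adjusted p = 0.0669), with quantile normalization (−0.28, adjusted p = 0.0645) and with the 75th percentile over detected probes (−0.20, adjusted p = 0.196).

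The TSA values of EZH1 were opposite in sign with and without UHRF1 depletion. TSA gave −0.28 in siCONT cells (adjusted p = 0.0865) and 0.34 in depleted cells (adjusted p = 0.050005), and neither value passed. The interaction was 0.61 (SE 0.15, adjusted p = 0.0675), which passed without either siUHRF1 mock array (adjusted p = 0.0426 and 0.0422). The rise in depleted cells passed under 2 scalings, at 0.43 (adjusted p = 0.0194) after quantile normalization and 0.50 (adjusted p = 0.0146) where detected probes set the percentile, and read −0.05 under median scaling.

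EZH2 (probe at chr7:148504505-148504564, hg19) read 2.50 and 2.52 in siCONT mock, 2.51 and 2.37 with siUHRF1-1 and siUHRF1-2 under mock, 2.40 and 2.26 in siCONT TSA, and 1.84 and 1.78 with both. The first 3 groups lay close, siUHRF1 mock overlapping both siCONT groups, and siUHRF1 TSA stood below all of them. The change of EZH2 with depletion plus TSA was −0.70 (SE 0.12, adjusted p = 0.00447, or 0.134 with siCONT as 1 sample), which left 61.6% of the signal. Depletion alone gave −0.07 (95% interval −0.35 to 0.22) and TSA alone −0.18 (95% interval −0.46 to 0.11). The TSA effect in depleted cells was −0.63 (adjusted p = 0.00788, or 0.0984). Depletion under TSA gave −0.52 (adjusted p = 0.0329, or 0.45), a call lost without any 1 of 6 arrays (adjusted p = 0.0644 to 0.22) and with the replicate number as a block (adjusted p = 0.0506, or 0.0555 with a block within each arm). It was lost too with no filter on dim probes (adjusted p = 0.0997) and with the 75th percentile over detected probes (−0.41, adjusted p = 0.0557). The interaction was −0.45 (adjusted p = 0.143).

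SUZ12 (probe at chr17:30327536-30327595, hg19, with 10 spots on each array) differed between the siRNAs. It read 4.15 and 4.19 in siCONT mock, 4.08 and 3.27 with siUHRF1-1 and siUHRF1-2 under mock, 3.82 and 3.85 in siCONT TSA, and 3.36 and 2.39 with both. Under each agent siUHRF1-2 was well below siUHRF1-1, and siUHRF1 mock straddled siCONT TSA. Relative to the siCONT mean of the same agent, siUHRF1-1 left 93.7% of the signal under mock and 72.2% under TSA, and siUHRF1-2 left 53.8% and 36.8%. Both treatments gave −1.29 (SE 0.37, adjusted p = 0.031, or 0.169 with siCONT as 1 sample), lost without any 1 siCONT array (adjusted p = 0.0566 to 0.115) and, at −0.81 (adjusted p = 0.12), without siUHRF1-2 under TSA. It was lost too with quantile normalization (−1.01, adjusted p = 0.069), where detected probes set the percentile (−1.05, adjusted p = 0.0561) and with no filter on dim probes (adjusted p = 0.073). The TSA effect in depleted cells was −0.80 (adjusted p = 0.139), with −0.72 for siUHRF1-1 and −0.88 for siUHRF1-2. With the replicate number, here the siRNA, as a block within each arm this value passed (adjusted p = 0.0122), as did depletion under TSA (−0.96, adjusted p = 0.0261, against 0.128 without the block). TSA in depleted cells also passed without siUHRF1-1 under TSA (−1.28, adjusted p = 0.0442).

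EED (probe at chr11:85989629-85989688, hg19) passed in none of the 6 comparisons. It read 3.75 and 3.88 in siCONT mock, 3.94 and 3.57 with siUHRF1-1 and siUHRF1-2 under mock, 3.61 and 3.68 in siCONT TSA, and 3.41 and 3.39 with both. The siUHRF1 mock arrays spanned both siCONT groups, and siUHRF1 TSA was lowest. Both treatments gave −0.41 (SE 0.15, 95% interval −0.79 to −0.04, adjusted p = 0.0685). It passed under median scaling (−0.81, adjusted p = 0.0218). Leaving out either siUHRF1 mock array, which lies outside this comparison, kept the value at −0.41 and changed only the pooled spread.

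The scaling of the arrays matters for the smaller of these values. For depletion plus TSA the median of all probes tested was −0.14 on the scale used here, −0.54 after median scaling, 0.10 when the 75th percentile was taken over detected probes only and −0.08 after quantile normalization. Relative to that median, SUV39H1 lay at −2.04, EHMT2 at −1.40, EZH2 at −0.56 and EZH1 at −0.30 under the 3 scalings that shift an array as a whole, and at −2.23, −1.35, −0.43 and −0.20 with quantile normalization. All 10 genes lay below 0 and below that median with both treatments under each of the 4 scalings.

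The genes with the most similar pattern were sought for the 4 members with the widest range of group means, by the root mean square difference over 8 arrays between levels centred on their own mean. SUV39H1 was closest to CENPK (0.11), LIN9 (0.13) and VRK1 (0.17), beside a median of 0.84 over 19897 probes above background on all arrays. CENPK encodes a kinetochore subunit, LIN9 a part of the complex that controls cell cycle genes, and VRK1 a kinase. CENPK read 0.21, −0.53, −0.38 and −1.93 in siCONT mock, siUHRF1 mock, siCONT TSA and siUHRF1 TSA. SUV39H2 was closest to DEPDC1B (0.07), TOPBP1 (0.08), a DNA damage checkpoint protein, and RMI2 (0.09), beside a median of 0.65. Among the genes nearest to EHMT2 were RGL3 (0.10) and CECR5 (0.10), beside 0.75. SUZ12 was closest to DR1 (0.07), a general repressor of transcription, TTC19 (0.10) and TMEM68 (0.11), beside 0.60.

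Most genes of a proliferation list fell with depletion plus TSA, as did 9 of the 10 genes. The part of proliferation in the values above was not tested. Depletion under TSA lowered 17 of 19 and raised 1, beside 8.49% of all probes lower and 8.99% higher. In that comparison 3 of the 10 genes fell. With depletion plus TSA 17 of 19 genes of a proliferation list fell and 1 rose, with a median change of −2.23, beside 26.2% of all probes lower and 21.0% higher. CCNB1, a mitotic cyclin, changed by −3.38 and TYMS, which makes thymidylate, by −3.35. TSA alone lowered 11 of 19 (median −0.81), beside 23.0% of all probes lower and 17.2% higher. Depletion alone lowered none and raised 1, beside 3.69% of all probes lower and 4.88% higher. The gene raised was E2F2, a transcription factor of the cell cycle, by 1.56 (adjusted p = 0.0102, or 0.244 with siCONT as 1 sample). At an unadjusted p under 0.05 in limma depletion alone reached 7 of 19, and the median of the list was −0.21. When added to depleted cells, TSA lowered all 19 (median −1.86), beside 20.8% of all probes lower and 18.5% higher. The interaction passed for 7 of 19, all lower, with TYMS at −2.04 (adjusted p = 0.0155, or 0.33), beside 2.54% of all probes lower. With siCONT as 1 sample, 14 of 19 passed for both treatments and 15 for TSA in depleted cells, and 0 for depletion alone, TSA alone or the interaction. For EHMT2 the siCONT TSA and siUHRF1 TSA arrays overlapped, while SUV39H1 and SUV39H2 were lower on the siUHRF1 TSA arrays, as was most of the list.

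**Figure D3:**
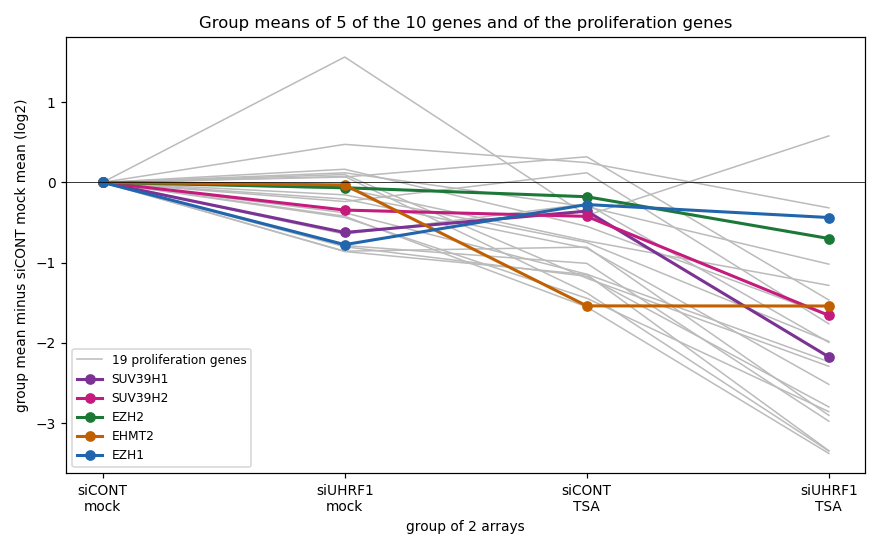
Mean of each group of 2 arrays minus the siCONT mock mean (log2) for 5 of the 10 genes in colour and for the 19 proliferation genes in grey. SUV39H1 and SUV39H2 drop from siCONT TSA to siUHRF1 TSA, as most grey lines do, EHMT2 is flat between these groups, and EZH1 is lowest in siUHRF1 mock.

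Among 9 partners that bind PRC2 and steer it to chromatin, depletion plus TSA lowered 4 and raised 1, with a median of −0.56, beside 26.2% of all probes lower and 21.0% higher. PHF19, which binds methylated H3K36, gave −1.23 (adjusted p = 0.00123) and the histone chaperones RBBP7 and RBBP4 gave −1.13 (adjusted p = 0.00938) and −0.998 (adjusted p = 0.00427). JARID2, a substoichiometric subunit, rose by 1.02 (adjusted p = 0.0019). TSA alone lowered 3 (RBBP4 −0.83, PHF1 −0.51 and MTF2 −0.48), beside 23.0% of all probes lower and 17.2% higher. Depletion alone lowered 1, PHF1 (−0.91, adjusted p = 0.0175), beside 3.69% lower and 4.88% higher. Depletion under TSA lowered PHF19 (−1.36) and raised JARID2 (1.01), beside 8.49% of all probes lower and 8.99% higher. TSA in depleted cells raised 2 and lowered 3, beside 18.5% of all probes higher and 20.8% lower. Among them were JARID2 at 1.13 and RBBP4 at −1.34. The interaction passed for JARID2 (1.13, adjusted p = 0.0332) and PHF1 (1.09, adjusted p = 0.0307), both higher, beside 3.29% of all probes higher and 2.54% lower. With siCONT as 1 sample 1 partner passed for both treatments, PHF19 (adjusted p = 0.0467), 2 for TSA in depleted cells, RBBP4 (adjusted p = 0.0235) and JARID2 (adjusted p = 0.0285), and none in the other 4 comparisons.

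Of 22 subunit genes tested of PRC1, the complex that ubiquitylates histone H2A, TSA alone raised 4 and lowered 7, beside 17.2% of all probes higher and 23.0% lower. Depletion alone raised 1 and lowered 2, beside 4.88% and 3.69%, and both treatments raised 3 and lowered 11 (median −0.44), beside 21.0% and 26.2%. BMI1, a RING finger partner of the catalytic subunit, rose by 2.98 with TSA alone (adjusted p = 0.000398) and by 1.81 with both (adjusted p = 0.000773), and within TSA-treated cells depletion changed it by −1.16 (adjusted p = 0.0134). CBX6, a chromodomain subunit, rose by 1.38 with TSA alone. PHC2, a Polyhomeotic subunit, changed by −1.51 with TSA alone and by −1.45 with both. SCMH1 changed by −1.34 and L3MBTL2 by −1.24 with both. Under depletion alone SCML2 (−1.11, adjusted p = 0.0116) and RNF2, the catalytic subunit (−0.75, adjusted p = 0.0251), fell and CBX2 rose (0.71, adjusted p = 0.0426). Averaged over all its probes CBX2 read −0.04 (adjusted p = 0.885). When added to depleted cells, TSA raised 6 and lowered 10 of 22, beside 18.5% of all probes higher and 20.8% lower. Depletion under TSA raised 1 and lowered 4, beside 8.99% higher and 8.49% lower. The interaction passed for PCGF3 alone (1.45, adjusted p = 0.0488), beside 3.29% higher and 2.54% lower. With siCONT as 1 sample 1 passed for TSA alone, BMI1 (adjusted p = 0.0463), 3 for both treatments, BMI1, PHC2 and L3MBTL2 (adjusted p = 0.0254, 0.0288 and 0.0401), 5 for TSA in depleted cells and none in the other 3 comparisons.

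Of 3 genes of the complex that removes ubiquitin from H2A, both treatments raised 1, ASXL1 (0.61, adjusted p = 0.0445, or 0.273 with siCONT as 1 sample), as did TSA in depleted cells (1.03, adjusted p = 0.00854, or 0.0567). Of all probes, 21.0% were higher and 26.2% lower with both treatments, and 18.5% and 20.8% with TSA in depleted cells. Neither gene for H3K27 demethylases passed for TSA alone, depletion alone or both. KDM6A was lower with depletion under TSA (−0.59, adjusted p = 0.0491, or 0.451), beside 8.49% of all probes lower and 8.99% higher.

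Proteins that partner the H3K9 enzymes or read their mark were led by CBX5, which encodes HP1 alpha. It changed by −1.25 with TSA alone (adjusted p = 0.00889, or 0.203 with siCONT as 1 sample), by −2.54 with both (adjusted p = 0.000558, or 0.0162) and by −1.28 with depletion under TSA (adjusted p = 0.019, or 0.249). CBX3, which encodes HP1 gamma, changed by −0.93 with both. ATF7IP, which encodes a cofactor that stabilizes the SETDB1 protein, rose by 0.83 with TSA alone (adjusted p = 0.00615, or 0.242) and by 0.70 with both (adjusted p = 0.00829, or 0.16). SETDB1 RNA fell in these comparisons, in calls that did not hold with siCONT as 1 sample, and its protein was not measured on the arrays. Of the 13 genes, TSA alone raised 1 and lowered 6, depletion alone changed 0 (4 at an unadjusted p under 0.05), and both raised 2 and lowered 7, beside the shares of all probes given for PRC1. With siCONT as 1 sample CBX5 alone passed, for both treatments and for TSA in depleted cells (adjusted p = 0.0194). Depletion under TSA raised 2 and lowered 2, beside 8.99% of all probes higher and 8.49% lower. TSA in depleted cells raised 1 and lowered 6, beside 18.5% higher and 20.8% lower. PPHLN1, a subunit of the HUSH silencing complex, was raised by depletion under TSA (0.68, adjusted p = 0.0226) on its brightest probe, and read −0.12 (adjusted p = 0.738) over all its probes.

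Demethylases of H3K9 passed in 1 direction only, lower. Both treatments lowered 6 of 12 (median −0.39), TSA alone 2 and depletion alone 0 (2 at an unadjusted p under 0.05). Of all probes, 26.2%, 23.0% and 3.69% were lower and 21.0%, 17.2% and 4.88% higher in these comparisons. The count for TSA alone was thus not above the background. KDM7A gave −1.59 (adjusted p = 0.00196) and KDM4B −1.20 (adjusted p = 0.00105) with both treatments, and −1.39 and −1.55 with TSA alone. KDM3A gave −1.34 and PHF2 −0.98 with both. Depletion under TSA lowered 2, JMJD1C (−0.90) and PHF2 (−0.87), beside 8.49% of all probes lower and 8.99% higher. TSA in depleted cells lowered 5 of 11 tested, beside 20.8% lower and 18.5% higher. With siCONT as 1 sample KDM7A and KDM4B passed for both treatments (adjusted p = 0.0404 and 0.0456) and for TSA in depleted cells (adjusted p = 0.0143 and 0.0358), and no H3K9 demethylase in the other 4 comparisons.

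**Figure D4:**
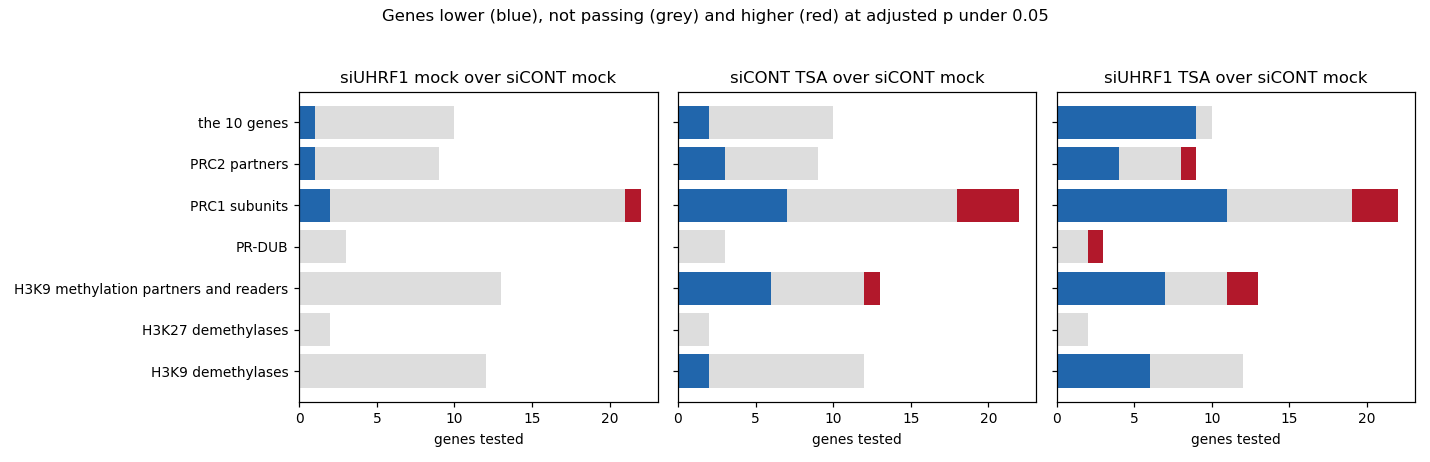
Genes lower (blue), not passing (grey) and higher (red) at an adjusted p under 0.05 in limma, for the 10 genes and for 6 lists of related genes, in the comparisons against siCONT mock; bar length is the number of genes tested. With both treatments 9 of the 10 genes are lower and none higher, while the PRC1 list has 11 lower and 3 higher.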

How the data were processed

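RNA of DLD1 cells was measured on 8 single-colour Agilent arrays. The deposited files hold a processed, linear intensity per spot, which the authors obtained with Agilent Feature Extraction 10.7 by subtracting background, with no scaling between arrays. The deposited series table held the same intensity to within 1% of each spot. Per the file headers probe positions are on hg19.

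Spots flagged as outliers were left out and the spots of a probe averaged. Levels (log2, minus the 75th percentile of the array) went into limma (version 3.58.1, R 4.3.3) with 4 group means, giving 4 residual degrees of freedom and a prior of 2.17, two-sided, with Benjamini-Hochberg adjustment and a threshold of 0.05. Probes were tested where, in at least 1 group compared, both arrays exceeded background. The fit was tested on simulated data in which a probe had the same spread on all arrays. That run therefore cannot show how the fit behaves under the unequal spread of the siCONT and siUHRF1 groups. The brightest probe stood for a gene. At most 4 genes per list and comparison were named, the largest changes among those that passed, and the 3 nearest patterns for 4 members, of which 1 is not reported here.

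A dim group gives "at least N-fold", the mean of the brighter group against the higher of the dim probe's signal and the lowest signal above background on each array. Alternatives were other scalings, background corrections, filters, probe averaging, replicate blocks, siCONT as 1 sample, each array left out, and the methods' t-test at 2-fold. Genes and lists were chosen with earlier results of these data known. Promoter windows came from RefSeq (GRCh38.p14).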

Additional observations from a re-analysis of the deposited data

Results flagged for a closer look

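The TSA values of EZH1 were opposite in sign in the 2 settings, lower on both siCONT arrays and higher on both siUHRF1 arrays. Neither value passed in limma (adjusted p = 0.0865 in siCONT cells and 0.050005 in depleted cells). Under median scaling the value in depleted cells read −0.05, so the signs were not opposite there. The difference between the TSA values was 0.61 on the log2 scale, and its test missed the threshold (limma, adjusted p = 0.0675).

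In 3 related genes the depletion effect differed between TSA and mock by the interaction test in limma. The difference was 1.13 for JARID2 (adjusted p = 0.0332), 1.09 for PHF1 (adjusted p = 0.0307) and 1.45 for PCGF3 (adjusted p = 0.0488). With siCONT as 1 sample none of the 3 passed (adjusted p = 0.527, 0.527 and 0.52).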

How the results depend on the processing

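Over 60 changes of the 10 genes and 1240 recomputed values, 1074 kept direction and side of the threshold, 106 lost and 32 gained a call, and 28 with no call on either side changed sign. None of the 10 genes reversed with a call. Values of 2 other genes reversed when all probes of a gene were averaged, CBX2 under depletion alone (−0.037, adjusted p = 0.885) and PPHLN1 for depletion under TSA (−0.12). The causes were not tested.

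The number of the 10 genes that passed moved as follows. For depletion alone (1 gene) it was 0 with no filter on dim probes, with siCONT as 1 sample and with the methods' t-test, adjusted or not, and 0 to 2 when an array was left out. For TSA in siCONT (2 genes) it was 1 with quantile normalization, with median scaling, with the 75th percentile over detected probes, with no filter and with the methods' t-test, adjusted or not, 0 with siCONT as 1 sample, and 1 to 3 when an array was left out. For depletion plus TSA (9 genes) it was 5 with quantile normalization and with the 75th percentile over detected probes, 3 with siCONT as 1 sample, 3 with the methods' t-test and 2 after its adjustment, and 4 to 10 when an array was left out, with 4 without either siCONT mock array. For depletion under TSA (3 genes) it was 6 with median scaling, 0 with siCONT as 1 sample, 0 with the adjusted methods' t-test, and 1 to 4 when an array was left out, with 1 without either siCONT TSA array. For TSA in depleted cells (7 genes) it was 4 with siCONT as 1 sample, 4 with the methods' t-test and 0 after its adjustment, and 6 to 8 when an array was left out. For the interaction (0 genes) it was 1 with quantile normalization and among probes above background on all arrays, and 0 to 4 when an array was left out, with 2 without siUHRF1-1 and 4 without siUHRF1-2 under mock. Where an array was left out, the lone array of its group was assumed to vary like the other groups. Leaving out an array that a comparison does not use kept the change itself and moved only the pooled spread behind the p-value. The change of UHRF1 under mock lost its call with siCONT as 1 sample (−1.83, adjusted p = 0.252), with the adjusted methods' t-test (−1.83) and without either siCONT mock array, and lay between −2.01 and −1.65 when an array was left out.

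Within-group differences of the arrays correlated at 0.34 between the siUHRF1 groups, whose numbers name the siRNA, at 0.07 between the siCONT groups and at −0.06 to 0.04 otherwise. With the replicate number as a replicate block over all arrays, 1, 2, 9, 2, 7 and 0 of the 10 genes passed in the 6 comparisons, and within each siRNA arm 1, 3, 9, 3, 8 and 0. Beyond the calls of EZH2, SUZ12 and SUV39H2 given above, the blocks changed no call of the 10 genes. Slide as a block was not run, since all arrays were on 1 slide. Groups of 2 arrays limit the precision, and intensities near background, as on the dimmer SUV39H1 probe, give only bounds.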
